A study of Mus musculus with 8 samples.

Results

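The genes described here encode the contractile apparatus of skeletal muscle, as measured in RNA of inguinal white adipose tissue (ING WAT). They are 40 genes listed by symbol: filament proteins, Z-disc proteins, calcium handling proteins and the oxygen store of the muscle fibre. The expression table held 38313 genes, and 39 of the 40 had values; *Acta1* was not analysed here. Of these 39 genes, 32 reached a mean of 1 FPKM over the 8 mice and were tested, and 7 did not (*Myh7*, *Tnni1*, *Actn2*, *Myoz2*, *Ryr1*, *Casq2* and *Sln*).

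In a muscle fibre, myosin of the thick filament pulls on actin of the thin filament, and both filaments are held in register by the Z-disc and by elastic scaffold proteins. Calcium released from the sarcoplasmic reticulum binds troponin on the thin filament, which moves tropomyosin and lets myosin bind, and pumping the calcium back ends the contraction. Fast and slow fibres build this machinery from different members of the same gene families. White adipose tissue is not built of such fibres, but the inguinal depot lies under the skin against the muscles of the groin and hind limb.

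Poly(A)+ RNA was sequenced from ING WAT of C57BL/6j mice, 4 at postnatal day 21 (PN21: m1, m49, m138 and m145) and 4 at postnatal day 98 (PN98: m35, m106, m114 and m125), each mouse giving 1 library. Values of single mice are given below in these orders. No genotype or treatment differed by label. The study's methods say that the female pups were killed at PN21 while the males were kept to PN98, part of them on a western style diet. The study also measured gene expression in epididymal fat, a depot of males, in its PN21 group. The labels give neither sex nor diet of the sequenced mice. A part of sex or diet in a difference between the ages therefore cannot be told apart from age here. Levels are FPKM, fragments per kilobase of transcript scaled to the mapped fragments of the library, summed over the transcripts of a gene, so that levels of different genes are per length. Differences are PN98 minus PN21 on the log2(FPKM + 1) scale with their standard error (SE), which understates changes of genes with low levels. A gene was called where limma gave a Benjamini-Hochberg adjusted p below 0.05 over the 16087 genes tested.

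The values carry no read counts, and library depth is therefore unknown. FPKM summed over nuclear genes lay between 813171 and 1208750 per mouse. The median log2 difference of all genes tested was −0.21, and it was 0.02 with equal nuclear sums in all mice, so that differences are read against −0.21. The adipocyte list marked the tissue in every mouse, with 16816 to 33245 FPKM in sum at PN21 and 41246 to 61606 FPKM at PN98.

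The muscle genes spread widely between mice of 1 age. Mean FPKM was higher at PN98 in 30 of the 39 genes with values, a count for which no share over all genes was taken. By limma, 4 of the 32 tested were called higher, as were 2.35% of all genes tested. Together the 39 genes held 0.0205%, 0.0278%, 0.130% and 0.0293% of the nuclear FPKM at PN21 and 0.165%, 0.649%, 0.241% and 0.0986% at PN98. The share of the highest PN21 mouse, m138, thus lay above that of the lowest PN98 mouse, m125, and the ages overlapped. The PN21 mice had a mean share of 0.0519% ± 0.0522 (SD, n = 4), the PN98 mice one of 0.289% ± 0.248 (SD, n = 4). In bulk tissue, fewer cells of a type and less RNA per cell cannot be told apart.

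Of the 32 genes tested, 4 were called higher at PN98 (*Tcap*, *Myoz1*, *Actn3* and *Atp2a1*), 1 was called lower (*Tnnt1*) and 27 were not called (limma, Benjamini-Hochberg). Over all 16087 genes, 2.35% were called higher and 2.93% lower. At an unadjusted limma p below 0.05 there were 18 higher and 2 lower muscle genes, against 8.17% and 19.1% of all genes. All 4 PN98 mice lay above all 4 PN21 mice in 9 of the 32 genes, a pattern that 6.05% of all genes had, and below them in 2, as 10% of all genes did. The log2 difference was above 0 in 28 of the 32 genes and below 0 in 4, where 33.0% of all genes tested were above 0 and 67.0% below, and its median was 1.63. The limit on low values shaped these counts, since 7 of the 32 (*Mybph*, *Klhl41*, *Ttn*, *Ldb3*, *Myot*, *Smpx* and *Trdn*) reached it through PN98 alone, with a PN21 mean below 1 FPKM, and *Myl2* reached it through PN21 alone.

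The calls changed when single mice were left out. Without m49, m145, m106 or m114 no muscle gene was called (limma, Benjamini-Hochberg), and without m1 *Tnnt1* was the 1 gene called. Without m138, the PN21 mouse with the highest muscle levels, 7 genes were called higher (*Myh4*, *Mybpc2*, *Tnnt3*, *Actn3*, *Tcap*, *Myoz1* and *Atp2a1*). Leaving out m35 gave 9 calls, these 7 with *Tnni2* and *Tnnt1*, and leaving out m125 gave 4 (*Actn3*, *Tcap*, *Myoz1* and *Ldb3*). With the nuclear sums set equal, 8 muscle genes were called higher, and with median of ratios scaling 10, but the 4 became 1 with a pseudocount of 0.1, 1 with the transcript of lowest p in place of the gene sum, and 0 without the limit on low values. Calls also changed for the genes of the other lists described below, of which 7 were called higher with all mice. Without 1 mouse, 2 (m1, m106 or m114), 3 (m49 or m145), 4 (m138), 9 (m125) or 13 (m35) of them were called higher. The share of all genes called in each of these fits is not reported here.

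**Figure D1:**
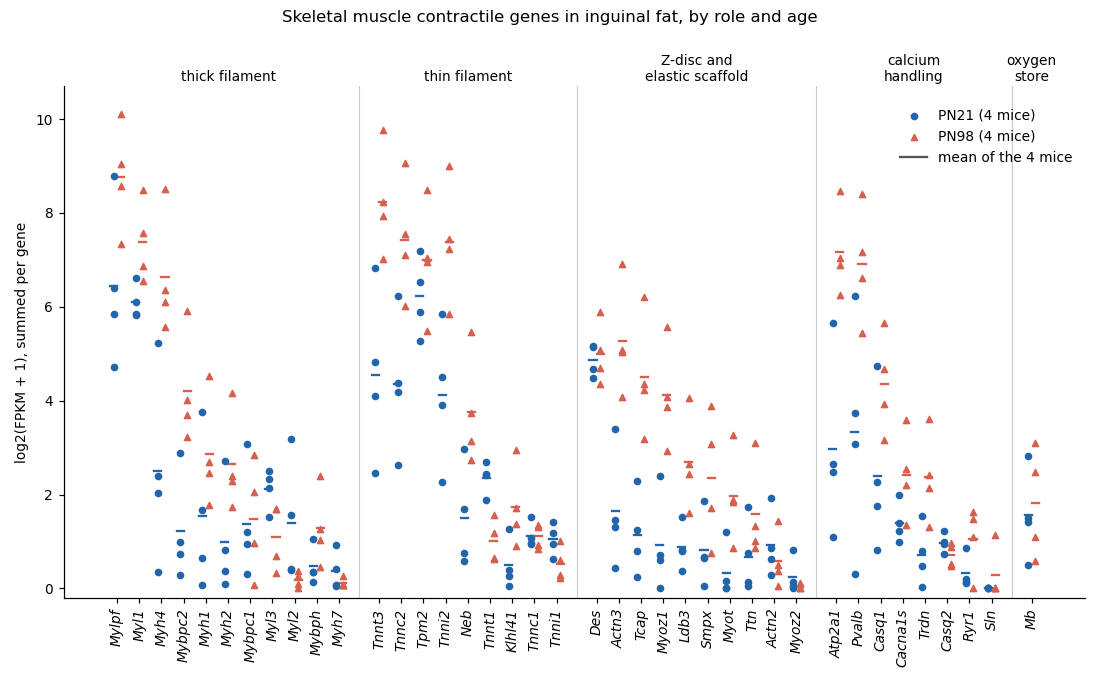
Levels of the 39 muscle genes with values, as log2(FPKM + 1), grouped by role and ordered by mean level within a role. Circles are the 4 PN21 mice, triangles the 4 PN98 mice, and short lines the mean of the 4 log2 values. *Mylpf* reached 441 FPKM at PN21 and 1099 FPKM at PN98, whereas slow forms such as *Myh7* and *Tnni1* stayed below 2 FPKM in every mouse.

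Among the 4 genes called higher, *Atp2a1* encodes the calcium pump of the fast-fibre sarcoplasmic reticulum, which returns calcium to the store. The gene lies at chr7:126445858-126463108 (GRCm38, minus strand). It had 1.14, 5.28, 49.2 and 4.57 FPKM at PN21 and 131, 352, 118 and 75.5 FPKM at PN98. The lowest PN98 mouse stood above the highest PN21 mouse, and the log2 difference was 4.20 (SE 0.92, adjusted p of limma = 0.0406). *Actn3*, the fast-fibre alpha-actinin that crosslinks actin at the Z-disc, had 0.346, 1.49, 9.57 and 1.74 FPKM at PN21 and 32.8, 119, 31.7 and 15.8 FPKM at PN98. Its groups did not overlap, with a log2 difference of 3.62 (SE 0.75, adjusted p of limma = 0.0335).

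*Tcap* encodes telethonin, the cap on the end of titin in the Z-disc, and had 0.181, 0.732, 3.92 and 1.39 FPKM at PN21 and 17.9, 72.8, 19.5 and 8.07 FPKM at PN98. All PN98 mice were higher than all PN21 mice, and the log2 difference was 3.35 (SE 0.66, adjusted p of limma = 0.0291). *Myoz1*, a Z-disc protein of fast fibres that binds calcineurin, was listed at 0 in m1. It had 0, 0.527, 4.25 and 0.631 FPKM at PN21 and 13.7, 46.5, 16.02 and 6.62 FPKM at PN98. These groups did not overlap either, and the log2 difference was 3.19 (SE 0.65, adjusted p of limma = 0.0325). Over the 8 fits without 1 mouse, the highest adjusted p of limma was 0.116 for *Atp2a1*, 0.0930 for *Actn3*, 0.0793 for *Tcap* and 0.0915 for *Myoz1*.

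*Tnnt1*, the slow-fibre troponin T, which ties the troponin complex to tropomyosin, was the gene called lower. It had 2.67, 4.42, 5.43 and 4.32 FPKM at PN21 and 1.98, 0.575, 1.26 and 0.539 FPKM at PN98. Every PN98 mouse was below every PN21 mouse, and the log2 difference was −1.35 (SE 0.27, adjusted p of limma = 0.0308). It was called in 2 of the 8 fits without 1 mouse, with adjusted p of limma from 0.00983 to 0.0980.

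Promoters are printed for the 4 muscle genes with the lowest adjusted p that have an entry in the RefSeq promoter table, so that the fast forms *Atp2a1*, *Mybpc2* and *Myh4* can be read beside the slow form *Tnnt1*. *Tcap*, *Myoz1* and *Actn3* have no entry there. Each window runs from 250 bases before to 50 bases after the start site of that promoter table, on the gene's own strand in build GRCm38.p6. This site, called the start below, can differ from the gene start of the annotation used for the levels. The *Myh4* window, for example, ends before that gene start (67238029). Capitals mark E-boxes (CANNTG, the letters bound by myogenic factors of the MyoD family) and the site of MEF2, a partner of these factors.
Tnnt1 (chr7:4515926-4516225, minus strand): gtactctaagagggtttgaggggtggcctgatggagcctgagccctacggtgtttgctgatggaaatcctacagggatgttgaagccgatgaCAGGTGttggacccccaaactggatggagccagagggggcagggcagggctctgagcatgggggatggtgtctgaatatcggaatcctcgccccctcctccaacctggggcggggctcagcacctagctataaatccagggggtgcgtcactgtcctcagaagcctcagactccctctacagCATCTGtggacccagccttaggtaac
Atp2a1 (chr7:126463024-126463323, minus strand): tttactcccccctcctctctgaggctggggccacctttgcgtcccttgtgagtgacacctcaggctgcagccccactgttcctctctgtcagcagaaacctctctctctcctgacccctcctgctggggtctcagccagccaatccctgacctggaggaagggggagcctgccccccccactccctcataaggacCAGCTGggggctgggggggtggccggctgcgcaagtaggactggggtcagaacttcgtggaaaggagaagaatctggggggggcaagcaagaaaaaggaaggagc
Mybpc2 (chr7:44524620-44524919, minus strand): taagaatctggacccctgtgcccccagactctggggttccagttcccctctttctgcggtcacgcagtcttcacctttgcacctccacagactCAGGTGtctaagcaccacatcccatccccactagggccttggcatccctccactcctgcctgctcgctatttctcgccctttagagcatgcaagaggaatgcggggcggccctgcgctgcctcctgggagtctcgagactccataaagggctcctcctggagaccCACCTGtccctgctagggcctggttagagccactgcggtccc
Myh4 (chr11:67237562-67237861, plus strand): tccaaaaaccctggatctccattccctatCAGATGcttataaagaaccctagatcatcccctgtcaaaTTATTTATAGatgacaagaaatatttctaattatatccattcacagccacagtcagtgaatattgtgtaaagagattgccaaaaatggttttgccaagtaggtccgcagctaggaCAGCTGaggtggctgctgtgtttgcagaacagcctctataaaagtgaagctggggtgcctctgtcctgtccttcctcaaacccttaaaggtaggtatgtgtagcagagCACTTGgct

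These windows held 2 E-boxes in *Tnnt1*, 1 in *Atp2a1*, 2 in *Mybpc2* and 3 in *Myh4*. The E-box of *Atp2a1* lay 55 bases before the start and reads CAGCTG, as does the one 67 bases before the start of *Myh4*. The MEF2 match in *Myh4*, TTATTTATAG, lay 182 bases before the start, and on the other strand it overlaps a TATAAA. The same 10 letters stood 211 bases before the start of *Myh1*.

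The promoter table covered 31 of the 40 muscle genes with 38 windows. On both strands, a CANNTG was found in 81.6% of these windows and in 72.3% of all 32851 promoters of the table. A MEF2 match was found in 18.4% of the muscle windows (7 of 38: *Klhl41*, *Ttn*, *Casq2*, *Myoz2*, *Myh1*, *Myh4* and *Pvalb*) and in 3.19% of all promoters. A loose CArG-like motif, CC and GG around bases of any kind, which can overlap an E-box, stood in 84.2% and 73.3%, and TATAAA in 21.1% and 13.6%. Matches were found in promoters of fast and of slow forms, and a match of letters is not evidence of a bound site.

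Within the thick filament, 10 of 11 genes were tested and none was called by limma. At an unadjusted limma p below 0.05, 5 were higher and 1 was lower, against 8.17% and 19.1% of all genes. *Mylpf*, the regulatory light chain of fast myosin, had the highest mean level of all the muscle genes. Its levels were 25.5, 83.4, 441 and 56.6 FPKM at PN21 and 378, 1099, 530.3 and 159.9 FPKM at PN98. The PN21 mouse m138 lay above the PN98 mice m35 and m125, so the groups overlapped (log2 difference 2.32, SE 0.89, adjusted p of limma = 0.149). The sum lacks 1 *Mylpf* transcript whose decimal marks could be read in more than 1 way. *Myh4*, the heavy chain of the fastest fibres, had 0.271, 4.24, 36.6 and 3.11 FPKM at PN21 and 80.6, 362, 67.3 and 46.5 FPKM at PN98. Here the groups did not overlap, with a log2 difference of 4.13 (SE 1.03, adjusted p of limma = 0.0589).

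*Mybpc2*, the fast myosin-binding protein C, which links neighbouring myosins, also had groups that did not overlap. It had 0.217, 0.9998, 6.37 and 0.664 FPKM at PN21 and 15.2, 59.6, 12.01 and 8.40 FPKM at PN98, a log2 difference of 2.99 (SE 0.71, adjusted p of limma = 0.0513). *Myl1*, the fast essential light chain, was high at both ages, with 55.6, 67.8, 96.7 and 56.7 FPKM at PN21 and 116, 359, 188 and 93.4 FPKM at PN98. Mouse m138 exceeded m125 alone among the PN98 mice (log2 difference 1.28, SE 0.41, adjusted p of limma = 0.109).

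The heavy chains of the other fast fibre types were much lower than *Myh4* at PN98. *Myh1* lay between 0.0552 and 12.6 FPKM at PN21 and 2.45 and 22.004 FPKM at PN98, and *Myh2* between 0.0704 and 5.56 FPKM at PN21 and 2.31 and 16.97 FPKM at PN98. Both overlapped between the ages, with log2 differences of 1.33 (adjusted p of limma = 0.337) and 1.64 (adjusted p of limma = 0.172). *Mybph*, a relative of the myosin-binding proteins C, stayed between 0.0943 and 1.06 FPKM at PN21 and 0.370 and 4.26 FPKM at PN98 and was not called.

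The slow thick filament genes were low at both ages. *Myh7*, the heavy chain of slow fibres and heart, had 0.0423, 0.326, 0.890 and 0.0521 FPKM at PN21 and 0.0522, 0.197, 0.0591 and 0.0540 FPKM at PN98, below the limit for testing. *Myl2*, the regulatory light chain of slow fibres and heart, had 0.341, 1.95, 8.15 and 0.309 FPKM at PN21 and 0.195, 0.0670, 0.293 and 0 FPKM at PN98. It passed that limit only through PN21 mouse m138, and every PN98 mouse lay below every PN21 mouse (log2 difference −1.21, SE 0.58, adjusted p of limma = 0.212).

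*Myl3*, the essential light chain of slow fibres and heart, had 4.03, 4.69, 3.42 and 1.86 FPKM at PN21 and 0.24997, 2.22, 0.626 and 2.22 FPKM at PN98. Of the 32 genes tested it was the 1 whose highest PN21 mouse was m49 and not m138, and the ages overlapped through m106 and m125 (log2 difference −1.02, SE 0.37, adjusted p of limma = 0.135). *Mybpc1*, the slow myosin-binding protein C, had 0.240, 1.30, 7.39 and 0.917 FPKM at PN21 and 0.964, 6.15, 3.14 and 0.0492 FPKM at PN98. Its values were highest in m138 and m106 and overlapped over nearly the whole range (log2 difference 0.10, SE 0.73, adjusted p of limma = 0.942), and the sign of the difference turned with a pseudocount of 0.1.

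In the thin filament, 8 of 10 genes were tested, and *Tnnt1* was the 1 called. It was lower, as were 2.93% of all genes. *Tnnt3*, the fast troponin T, had the highest mean level of this filament, with 4.49, 16.2, 113 and 27.3 FPKM at PN21 and 244, 876, 298 and 128 FPKM at PN98. The lowest PN98 mouse, m125, was above the highest PN21 mouse, m138, and the log2 difference was 3.68 (SE 0.92, adjusted p of limma = 0.0593). *Tnni2*, the fast inhibitory subunit, had 3.82, 13.99, 56.2 and 21.8 FPKM at PN21 and 150.3, 512, 173 and 56.4 FPKM at PN98. Mouse m125 lay just above m138, so that the groups touched without overlapping, with a log2 difference of 3.25 (SE 0.85, adjusted p of limma = 0.0652).

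*Tnnc2*, the fast calcium-binding subunit, had 5.23, 17.2, 74.6 and 19.9 FPKM at PN21 and 136, 538, 186 and 63.6 FPKM at PN98. Mouse m138 exceeded m125 here, so the groups overlapped (log2 difference 3.07, SE 0.84, adjusted p of limma = 0.0753). In all 3 fast troponin genes m138 was the highest and m1 the lowest mouse at PN21, and m106 the highest and m125 the lowest at PN98.

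Slow troponins were low at both ages. *Tnni1*, the slow inhibitory subunit, had 0.553, 1.27, 1.68 and 0.920 FPKM at PN21 and 1.01, 0.169, 0.518 and 0.221 FPKM at PN98 and was not tested. *Tnnc1*, the calcium-binding subunit of slow fibres and heart, had 1.11, 0.934, 1.87 and 0.949 FPKM at PN21 and 0.782, 1.49, 0.896 and 1.56 FPKM at PN98. Its ages overlapped (log2 difference −0.02, SE 0.20, adjusted p of limma = 0.958), and its sign turned when the mice were scaled to equal nuclear sums (0.13) or by median of ratios (0.12).

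*Tpm2*, the beta-tropomyosin that lies along actin and is also made in other cell types, had levels between 37.9 and 145.1 FPKM at PN21 and 43.7 and 359.9 FPKM at PN98. Its log2 difference of 0.77 was not called (adjusted p of limma = 0.457). *Neb*, the giant protein along the thin filament, lay between 0.507 and 6.83 FPKM at PN21 and 5.65 and 43.2 FPKM at PN98 (log2 difference 2.26, adjusted p of limma = 0.0992). *Klhl41*, a kelch protein that stabilises nebulin, lay between 0.0386 and 1.39 FPKM at PN21 and 0.879 and 6.71 FPKM at PN98 (log2 difference 1.24, adjusted p of limma = 0.136).

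Of the 10 Z-disc and scaffold genes, 8 were tested. All 8 had a log2 difference above 0, as had 33.0% of all genes tested. The 3 described above were called higher, as were 2.35% of all genes. *Des*, which encodes desmin, the intermediate filament between Z-discs and also a filament of smooth muscle, had the highest mean level of the group. It had 21.3, 24.4, 34.9 and 34.3 FPKM at PN21 and 33.0, 58.2, 24.9 and 19.4 FPKM at PN98, so that the ages overlapped, with m125 lowest and m106 highest of all (log2 difference 0.14, SE 0.34, adjusted p of limma = 0.806). *Actn2*, the alpha-actinin of all fibres and of heart, had 0.223, 0.830, 2.78 and 0.557 FPKM at PN21 and 0.406, 1.72, 0.299 and 0.0327 FPKM at PN98, below the limit for testing. *Myoz2*, the slow and cardiac relative of *Myoz1*, had 0, 0.0318, 0.765 and 0.108 FPKM at PN21 and 0, 0.0871, 0.0679 and 0 FPKM at PN98 and was not tested.

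*Ldb3*, a PDZ and LIM domain protein of the Z-disc, lay between 0.292 and 1.88 FPKM at PN21 and 2.03 and 15.6 FPKM at PN98, and its ages did not overlap (log2 difference 1.81, SE 0.49, adjusted p of limma = 0.0757). *Myot*, which encodes the actin-bundling protein myotilin, lay between 0 and 1.31 FPKM at PN21 and 0.809 and 8.58 FPKM at PN98 (log2 difference 1.62, SE 0.50, adjusted p of limma = 0.0989). *Smpx*, a small muscle protein, and *Ttn*, the elastic titin that spans from Z-disc to mid-sarcomere, had log2 differences of 1.55 (adjusted p of limma = 0.188) and 0.91 (adjusted p of limma = 0.315). *Ttn* did not exceed 7.56 FPKM in any mouse.

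Among 8 calcium handling genes 5 were tested, with *Atp2a1* called higher, as were 2.35% of all genes. *Casq1*, the calcium store protein of fast fibres, had 0.764, 3.80, 25.7 and 2.40 FPKM at PN21 and 14.3, 49.2, 24.6 and 7.93 FPKM at PN98. Mouse m138 was above 3 of the 4 PN98 mice (log2 difference 1.96, SE 0.85, adjusted p of limma = 0.184). *Casq2*, the store protein of slow fibres and heart, had 0.919, 0.662, 1.35 and 0.988 FPKM at PN21 and 0.838, 0.434, 0.947 and 0.387 FPKM at PN98, with overlapping ages and a mean too low for testing.

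*Pvalb*, the calcium buffer of fast fibres, lay between 0.240 and 73.7 FPKM at PN21 and 42.4 and 339 FPKM at PN98 (log2 difference 3.57, SE 1.17, adjusted p of limma = 0.110). *Cacna1s*, the voltage sensor of the fibre membrane, and *Trdn*, which anchors calsequestrin to the release channel, had log2 differences of 1.02 (adjusted p of limma = 0.187) and 1.66 (adjusted p of limma = 0.0939). *Ryr1*, the release channel, was listed at 0 in m106, the mouse with the highest muscle levels, and reached 2.11 FPKM in m35. *Sln*, a small inhibitor of the calcium pump, was listed at 0 in every mouse but m106, which had 1.19 FPKM. *Mb*, the oxygen store myoglobin, had 0.407, 1.83, 6.12 and 1.67 FPKM at PN21 and 1.14, 7.57, 4.56 and 0.504 FPKM at PN98, with overlapping ages (log2 difference 0.26, SE 0.66, adjusted p of limma = 0.820).

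Grouped by fibre form, the 14 fast forms had log2 differences from 1.28 to 4.20 with a median of 3.13. Of the 14, 3 were called higher by limma (*Atp2a1*, *Actn3* and *Myoz1*), as were 2.35% of all genes. All 4 PN98 mice lay above all 4 PN21 mice in 7 of the 14, a pattern that 6.05% of all genes had. Of the 10 slow forms, 5 reached the limit for testing, with differences of −1.35 for *Tnnt1*, −1.02 for *Myl3*, −0.02 for *Tnnc1* and 0.10 for *Mybpc1*, and with *Myl2* (−1.21), which reached it through PN21 alone. The 13 tested genes of neither form had a median of 1.24, with 1 called higher (*Tcap*), as were 2.35% of all genes.

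Fast forms were compared with slow forms of the same family within each mouse (*Actn2*, counted as the slow partner of *Actn3*, is made in fibres of every type), as log2((fast FPKM + 1)/(slow FPKM + 1)), a ratio in which both forms come from the same library. The 10 pairs were each compared between the ages with an exact permutation test (two-sided), for which 70 divisions of the mice exist and the smallest possible p is 0.0286. The ratio was higher at PN98 in all 10 pairs, and in 8 the ages did not overlap. Among levels of single genes, 6.05% of all genes tested had all PN98 mice above all PN21 mice. No such share was taken for ratios. The 8 pairs without overlap had the smallest p that the test can give, a Benjamini-Hochberg value of 0.0357 over the 10 pairs. These pairs are not independent tests, since the fast forms mostly shared the order of the mice, as described below. In 5 of the pairs the slow form lay below the limit for testing (*Myh7*, *Tnni1*, *Actn2*, *Myoz2* and *Casq2*), and with 1 FPKM added to either form these ratios mostly repeat the level of the fast form. The difference was 4.37 for *Myh4* over *Myh7* and 4.13 for *Myh4* alone, and 3.39 for *Myoz1* over *Myoz2* and 3.19 for *Myoz1* alone. Among the 5 pairs whose slow form was tested, the ages did not overlap in 4, which is also the number that passed the exact permutation test over these 5 pairs.

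The troponin T pair differed most, with log2 ratios of 0.58, 1.66, 4.15 and 2.41 at PN21 and 6.36, 9.12, 7.05 and 6.39 at PN98. The mean was 2.20 ± 1.499 at PN21 and 7.23 ± 1.30 at PN98 (SD, n = 4), a difference of 5.03. For the myosin heavy chains *Myh4* and *Myh7* the ratios were 0.29, 1.98, 4.31 and 1.97 at PN21 and 6.28, 8.25, 6.01 and 5.49 at PN98, a difference of 4.37. In both pairs m138 had the highest ratio at PN21 and m106 the highest at PN98.

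Differences of the other pairs without overlap were 3.96 for *Actn3* and *Actn2*, 3.77 for *Tnni2* and *Tnni1*, 3.53 for *Mylpf* and *Myl2*, 3.39 for *Myoz1* and *Myoz2*, 2.89 for *Mybpc2* and *Mybpc1* and 2.301 for *Myl1* and *Myl3*. The slow form exceeded the fast form in 5 of the 80 pair values, all at PN21. Of these, 4 were the myosin-binding proteins C, where the 4 PN21 ratios were −0.03, −0.20, −0.19 and −0.20, and the fifth was *Casq1* against *Casq2* in m1.

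The ages overlapped for *Tnnc2* and *Tnnc1*, whose ratios were 1.56, 3.24, 4.72 and 3.42 at PN21 and 6.26, 7.76, 6.63 and 4.65 at PN98 (difference 3.09, exact permutation p = 0.0571, Benjamini-Hochberg 0.0635). They also overlapped for *Casq1* and *Casq2*, with −0.12, 1.53, 3.51 and 0.77 at PN21 and 3.05, 5.13, 3.72 and 2.69 at PN98 (difference 2.22, exact permutation p = 0.0857, Benjamini-Hochberg 0.0857). In both pairs m138 lay above the PN98 mouse m125.

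**Figure D2:**
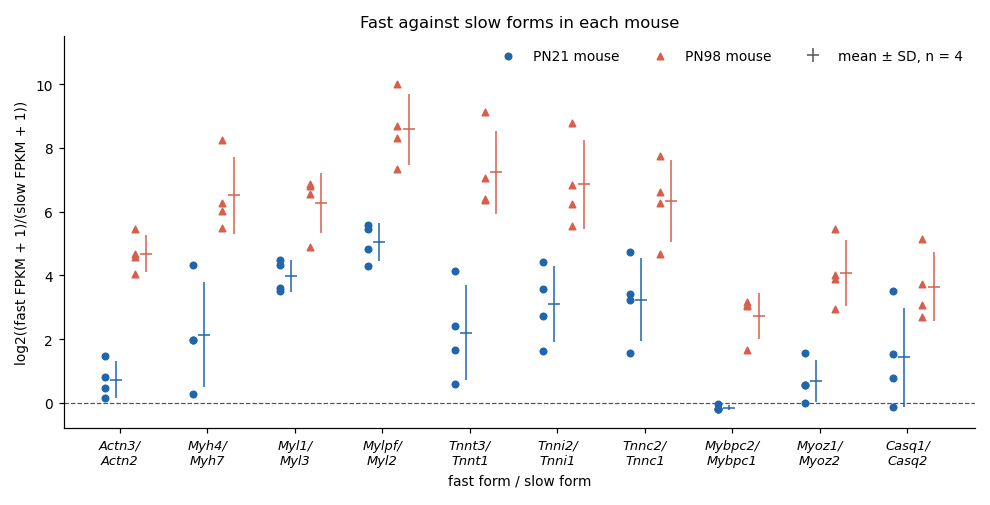
Log2((fast FPKM + 1)/(slow FPKM + 1)) of the 10 pairs in each mouse, with circles for PN21 and triangles for PN98 and the mean ± SD of 4 mice beside them. The dashed line marks equal levels; the ages are separated in 8 pairs, and 5 of the 80 values lie below the line, all at PN21.

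In sum, the 10 fast forms of these pairs had 96.2, 209.7, 863 and 191 FPKM at PN21 and 1181, 4020.3, 1528 and 586 FPKM at PN98. The 10 slow forms had 10.1, 16.4, 33.7 and 10.98 FPKM at PN21 and 6.48, 13.1, 8.11 and 5.07 FPKM at PN98. The slow sum ran over a 6.65-fold range of the 8 mice and the fast sum over a 41.8-fold range, and both were highest in m138 at PN21 and in m106 at PN98, and lowest in m1 and m125. The mean slow sum was 17.8 FPKM ± 10.97 at PN21 and 8.19 FPKM ± 3.504 at PN98 (SD, n = 4). Slow forms made up 3.76% to 9.52% of both at PN21 and 0.325% to 0.857% at PN98. The mean slow share was 6.496% ± 2.47 (SD, n = 4) in the PN21 mice and 0.564% ± 0.220 (SD, n = 4) in the PN98 mice, and the ages did not overlap. Without the alpha-actinins, the mean slow share was 6.26% and 0.553%.

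The order of the mice was shared by most muscle genes. At PN21, m138 was the highest mouse in 31 of the 32 genes tested and m1 the lowest in 26. At PN98, m106 was the highest in 28 and m125 the lowest in 29. Over the 14 fast forms, m138 exceeded m1 by 1.74- to 308-fold with a median of 29.4-fold, not counting a level of 0 in m1, and m106 exceeded m125 by 3.85- to 9.07-fold. In 7 of the 14 fast forms, the lowest PN98 mouse m125 was above the highest PN21 mouse m138.

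Each gene was set against the mean log2(FPKM + 1) of the other muscle genes tested, over the 8 mice, as a description in which all genes share the libraries and their depth. Pearson's r had a median of 0.949 over the 32 genes and Spearman's rho one of 0.940. The fast forms had r from 0.935 to 0.986, the genes of neither form from 0.674 to 0.977, and the slow forms from −0.55 to 0.698. Without m1 and m106, the mice farthest from the median, the median r was 0.903, and *Des* (0.07), *Mb* (0.39) and *Mybpc1* (0.43) no longer followed the rest closely.

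Because most of these genes had higher means at PN98, r was also taken on deviations from the mean of each age. The median was 0.939, with 0.878 to 0.995 in the fast forms and 0.810 to 0.961 in the genes of neither form. The tested slow forms ranged from 0.068 for *Myl3* to 0.964 for *Mybpc1*, with 0.280 for *Tnnt1*, 0.483 for *Tnnc1* and 0.661 for *Myl2*. Of the slow forms below the limit for testing, *Actn2* (0.986), *Myh7* (0.806) and *Myoz2* (0.780) ran with the muscle genes more closely than *Tnni1* (0.324) and *Casq2* (0.273).

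**Figure D3:**
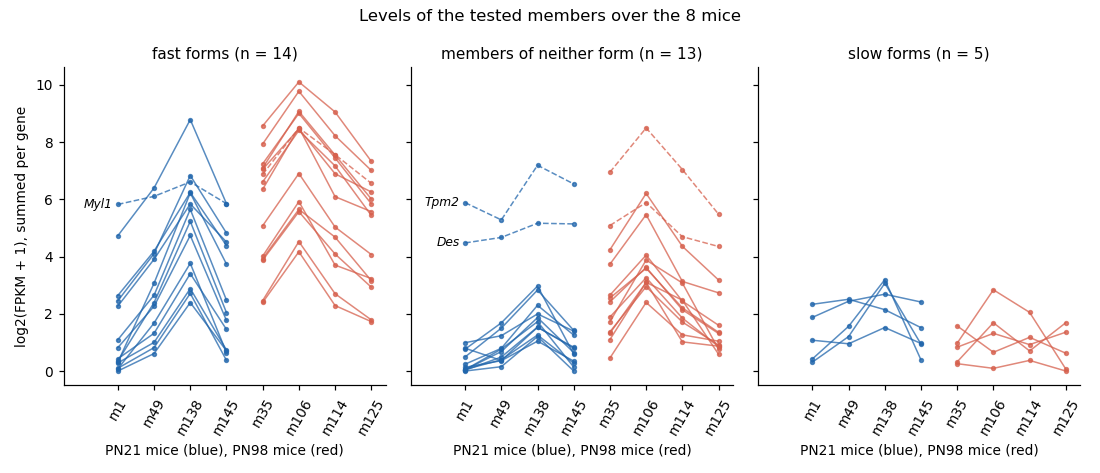
Log2(FPKM + 1) of the tested muscle genes over the 8 mice, in panels for 14 fast forms, 13 genes of neither form and 5 slow forms. Each line is a gene, blue within PN21 and red within PN98, and the mice have no order. Lines of the first and second panels peak at m138 and m106, except that *Myl1*, *Tpm2* and *Des* (dashed) start high in m1.

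Proportions between fast forms varied less at PN98 than the levels themselves. *Tnnt3* ran from 128 to 876 FPKM at PN98. Relative to it, the level of *Actn3* was 0.134, 0.136, 0.106 and 0.124 in the 4 PN98 mice, and that of *Tnnc2* was 0.557, 0.614, 0.625 and 0.497. The level of *Myh4* relative to *Tnnt3* was 0.331, 0.414, 0.226 and 0.364. The SD of such log2 ratios at PN98 was 0.152 for *Tnnc2*, 0.162 for *Actn3*, 0.294 for *Atp2a1*, 0.351 for *Mybpc2*, 0.376 for *Myh4* and 0.377 for *Myl1*. Over the fast forms with a value above 0 in every mouse, 12 beside *Tnnt3*, its median was 0.251.

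Over all 8 mice the ratios to *Tnnt3* moved more. The highest ratio was 1.96 to 30.2 times the lowest in the 12 fast forms, with a median of 4.37, 2.40 to 71.3 times in 12 genes of neither form, with a median of 11.8, and 102 to 906 times in 8 slow forms. *Des* (71.3), *Tpm2* (37.9) and *Mb* (28.7) had the widest ranges among the genes of neither form, and *Myl1* (30.2) among the fast forms, followed by *Pvalb* (12.2). *Tnnt1* (906) and *Myl3* (876) had the widest of all. *Myl1*, *Tpm2* and *Des* together held 70.8%, 41.6%, 22.1% and 51.7% of the summed muscle FPKM at PN21, but 16.6%, 14.4%, 17.01% and 19.5% at PN98. Their share was highest in m1, the mouse with the lowest muscle sum (190.5 FPKM), and lowest in m106, which had the highest (5385 FPKM). With these 3 genes left out, the muscle sum was 55.6, 183, 975 and 171 FPKM at PN21 and 1364, 4607, 1678 and 646 FPKM at PN98.

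The transcripts of *Tpm2* showed 2 patterns. *Tpm2-203* had 36.1, 18.2, 33.9 and 62.3 FPKM at PN21 and 25.2, 15.7, 13.6 and 8.80 FPKM at PN98, and its 4 PN98 values all lay below those of m1, m138 and m145. *Tpm2-206* had 19.9, 11.3, 48.0 and 17.6 FPKM at PN21 and 41.8, 142, 46.6 and 17.5 FPKM at PN98, and followed the other muscle genes with m138 and m106 highest. *Tpm2-204* and *Tpm2-202* followed them as well, and *Tpm2-204* was listed at 0 in m1. With *Tpm2-203* as the transcript of lowest p, the log2 difference of *Tpm2* turned from 0.77 to −1.22.

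For *Myh1*, the transcript *Myh1-202* carried the PN21 levels, with 2.19, 12.5 and 0.532 FPKM in m49, m138 and m145. *Myh1-201* carried those of PN98, with 4.51, 22.0, 5.46 and 2.45 FPKM. Each was at or below 0.055 FPKM in every mouse of the other age. Some transcripts annotated as retained introns held much of the signal. *Mylpf-204* had 303 of the 441 FPKM of its gene in m138, and *Tnnt3-221* had 329 of 876 FPKM in m106. Reads were divided among overlapping transcripts by the estimation of Cufflinks, and 18 of the muscle genes have a transcript that the table lists with another gene as well, so that such divisions are uncertain.

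**Figure D4:**
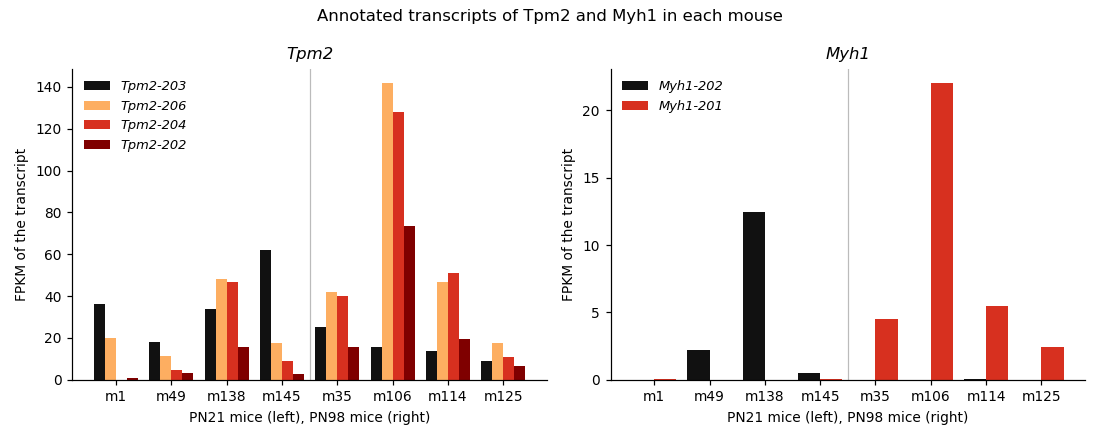
FPKM of single annotated transcripts in each mouse, for *Tpm2* on the left and *Myh1* on the right, with PN21 mice left of the grey line. *Tpm2-203* is the tallest bar in m1, m49 and m145 and the second lowest or lowest in the PN98 mice, and *Myh1-202* gives way to *Myh1-201*.

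The 10 other genes whose levels ran closest to the mean of the 32 muscle genes were ranked by Pearson's r over the 8 mice among 16055 genes. They were *Eef1a2* (0.988), *Pgam2* (0.985), *Myh8* (0.973), *Eno3* (0.970), *Ank1* (0.970), *Zfp874a* (0.966), *Myh13* (0.965), *Ckm* (0.962), *Hfe2* (0.955) and *Art1* (0.955). *Ckm*, the creatine kinase of muscle, had 0.347, 7.79, 50.4 and 8.71 FPKM at PN21 and 135, 487, 173 and 69.8 FPKM at PN98. Its groups did not overlap, with a log2 difference of 4.27 (SE 1.05, adjusted p of limma = 0.0560). None of the 10 was called by limma, and 9 of them were higher at an unadjusted limma p below 0.05, as were 8.17% of all genes. The 10 were picked for running with a muscle mean that was itself higher at PN98 (3.96 against 2.27 at PN21). Their count of higher genes thus follows largely from the choice.

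Lists of other muscle genes were read for the same pattern. Of 12 tested genes for other sarcomere and Z-disc proteins, all 12 had a log2 difference above 0, as had 33.0% of all genes. Of these, *Mylk2*, a myosin light chain kinase of skeletal muscle, was called higher (2.36, adjusted p of limma = 0.0445), as were 2.35% of all genes. Of 10 tested genes of excitation-contraction coupling, 2 were called higher, against the same 2.35%. They were *Asph*, whose products include the calsequestrin anchor junctin (2.38, adjusted p of limma = 0.0213), and *Jph1*, which holds the fibre membrane against the calcium store (0.97, adjusted p of limma = 0.0320). The mean of either list ran with the muscle genes within the ages, with r of 0.880 and 0.876. Of their genes with the highest levels, *Tmod4* lay between 1.37 and 5.45 FPKM at PN21 and 2.15 and 18.5 FPKM at PN98 and ran with the muscle genes (within-age r = 0.885). *Myl6b*, between 5.41 and 8.31 FPKM at PN21 and 6.65 and 12.03 FPKM at PN98, did not (−0.361). *Atp2a2*, the calcium pump of slow fibres and many other tissues, lay between 30.8 and 48.0 FPKM at PN21 and 30.5 and 42.5 FPKM at PN98 (0.349). *Asph* itself lay between 1.92 and 11.1 FPKM at PN21 and 28.6 and 42.4 FPKM at PN98, with a within-age r of 0.236, so that it did not run closely with the muscle genes within the ages.

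Among 15 tested genes of muscle energy supply, *Pygm*, the glycogen phosphorylase of muscle, was called higher (2.69, adjusted p of limma = 0.0497), as were 2.35% of all genes. Of the 15, 5 had a difference below 0, as had 67.0% of all genes. The genes with the highest levels in this list were *Aldoa*, between 1143 and 2143 FPKM at PN21 and 833 and 3081 FPKM at PN98, and *Cox8b*, between 1175 and 3540.1 FPKM at PN21 and 247 and 2003 FPKM at PN98, which fat also expresses. Of 4 tested genes of the muscle membrane and the neuromuscular junction none was called by limma, and 7 of 12 stayed below 1 FPKM in every mouse. At an unadjusted limma p below 0.05, 1 of the 4 was higher and 1 lower, against 8.17% and 19.1% of all genes. *Dmd*, which encodes dystrophin, lay between 1.91 and 4.41 FPKM at PN21 and 3.37 and 4.96 FPKM at PN98, and *Chrnb1* between 2.48 and 4.04 FPKM at PN21 and 1.24 and 5.03 FPKM at PN98.

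Most genes of muscle precursors were low. Of 12 myogenic regulators and satellite cell genes, 8 were below 1 FPKM in every mouse (*Pax7*, *Pax3*, *Myf5*, *Myod1*, *Myog*, *Eya1*, *Mymk* and *Megf10*), and *Pax7*, which marks satellite cells, did not exceed 0.0125 FPKM. *Mef2c*, a transcription factor of muscle and other tissues, lay between 0.964 and 4.78 FPKM at PN21 and 0.808 and 3.84 FPKM at PN98 and was not called by limma. Of the embryonic and neonatal genes, *Myh3*, the embryonic heavy chain, stayed below 1 FPKM, whereas *Myh8*, the perinatal heavy chain, lay between 0.0495 and 2.35 FPKM at PN21 and 2.24 and 18.7 FPKM at PN98 (log2 difference 2.01, adjusted p of limma = 0.0910). *Myl4* lay between 8.72 and 25.01 FPKM at PN21 and 10.2 and 39.6 FPKM at PN98. Reads of *Myh8* and *Myh13* may be shared with their near-identical neighbours *Myh1*, *Myh2* and *Myh4*, so that these levels are uncertain.

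Markers of heart muscle were low, with 6 of 7 genes below 1 FPKM in every mouse. *Tnni3* was the exception, between 3.72 and 10.9 FPKM at PN21 and 2.40 and 11.02 FPKM at PN98, and *Myl7* reached 0.534 FPKM at PN21 and was listed at 0 in every PN98 mouse. Smooth muscle genes were present throughout but did not follow the muscle genes within the ages (r = 0.115). *Myl9* lay between 49.9 and 124.9 FPKM at PN21 and 16.2 and 88.1 FPKM at PN98 and *Acta2* between 32.1 and 74.2 FPKM at PN21 and 8.11 and 189.6 FPKM at PN98. *Actg2* was the 1 of 9 tested that was called, lower at PN98 (−1.29, adjusted p of limma = 0.0256), as were 2.93% of all genes. At an unadjusted limma p below 0.05, 3 of the 9 were lower and 1 was higher, against 19.1% and 8.17% of all genes. The higher one was *Synpo2*, which lay between 6.32 and 13.6 FPKM at PN21 and 13.3 and 48.5 FPKM at PN98 (1.59, adjusted p of limma = 0.0569) and is named for that count.

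Genes of other cell types also differed between the ages. The mean of the adipocyte list ran against the muscle genes within the ages (r = −0.713). Of its 10 tested genes, *Cidec* (2.16), *Adipoq* (1.45) and *Lipe* (0.99) were called higher, as were 2.35% of all genes. *Fabp4* lay between 10641 and 20251 FPKM at PN21 and 27521 and 37466 FPKM at PN98, and *Cfd* between 2262 and 7463 FPKM at PN21 and 3353 and 12288 FPKM at PN98. Of the Schwann cell genes, *Ncmap* (−1.54), *Mbp* (−1.52) and *Pmp22* (−1.36) were called lower, as were 2.93% of all genes. *Pmp22* lay between 105 and 152 FPKM at PN21 and 42.2 and 63.7 FPKM at PN98, and *Mbp* between 22.3 and 67.1 FPKM at PN21 and 10.4 and 18.5 FPKM at PN98.

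Lymphocyte and lymph node genes had a log2 difference below 0 in all 10 tested, as had 67.0% of all genes. Of these, *Glycam1* was called lower (−6.11), as were 2.93% of all genes. It lay between 578 and 1307 FPKM at PN21 and 1.83 and 105 FPKM at PN98. *Cd3g* lay between 129.6 and 305 FPKM at PN21 and 7.28 and 245 FPKM at PN98. *Epcam* was called lower among 7 tested epithelial genes (−1.16), as were 2.93% of all genes. *Krt10* lay between 1.496 and 33.4 FPKM at PN21 and 1.33 and 1.88 FPKM at PN98 and *Krt19* between 1.27 and 9.73 FPKM at PN21 and 0.589 and 0.890 FPKM at PN98. None of 8 brown adipocyte and none of 8 endothelial genes was called by limma, with *Cox7a1* between 855 and 1725 FPKM at PN21 and 59.8 and 748 FPKM at PN98, *Egfl7* between 231 and 341 FPKM at PN21 and 113 and 316 FPKM at PN98 and *Cldn5* between 39.6 and 129 FPKM at PN21 and 36.0 and 177 FPKM at PN98. At an unadjusted limma p below 0.05, 3 of the 8 brown adipocyte and 1 of the 8 endothelial genes were lower, as were 19.1% of all genes. Within the ages, the list means ran with the muscle genes at r of 0.031 for brown adipocytes, 0.212 for endothelium, 0.247 for nerve, 0.399 for lymph node and −0.351 for epithelium. The part of these cell types, or of muscle taken with the depot, in the levels of the muscle genes was not tested.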

How the data were processed

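ING WAT RNA of 4 PN21 and 4 PN98 mice, each a separate animal, was sequenced in paired-end reads of 100 bases. Per the labels and methods, the authors used CASAVA 1.8.2, mapped to mm10 with STAR 2.3.0 and deposited FPKM per transcript from Cufflinks 2.1.1 on a Gencode annotation. The kit keeps strand; the strand setting of the quantification is not given in the sources used here.

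The deposited FPKM table held 91969 transcripts with decimal commas, and 40426 had lost a decimal mark. Marks were restored from the deposited standard deviation, average and score columns. A single reading was found for 40376, 15 were taken from the authors' intact table of the same mice, and 35 were left out. All 5014 restored transcripts that the intact table also lists were equal there within a relative 1e-05. Fold changes and p-values deposited by the authors were not used.

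Transcripts were assigned to genes by GENCODE and summed. Genes whose FPKM averaged 1 or more were compared with limma 3.58.1 (R 4.3.3) on log2(FPKM + 1), PN98 minus PN21, after tests on simulated data, with Benjamini-Hochberg adjustment. Fast to slow ratios were compared with an exact permutation test over all divisions of the mice, and scipy 1.17.1 gave its Benjamini-Hochberg adjustment. Alternatives covered scaling, pseudocount, filters, limma's variance and weights, transcript choice and leaving out each mouse.

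Genes given mouse by mouse were those of the pairs, those called and the first of each role by mean FPKM. Of each other list, called genes and the 2 of highest mean FPKM were named, with the 10 genes nearest to the muscle mean; a few values under this rule are not reported here. The muscle genes and all lists were chosen with earlier results of these data known.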

Additional observations from a re-analysis of the deposited data

Results flagged for a closer look

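Within each age, the highest and the lowest mouse of every muscle gene, of every fast to slow ratio and of the muscle share were checked for a wide gap to the next mouse (Dixon's critical value for 4 mice). Of 100 groups checked, 8 had such a gap, and chance alone gives one in about 5% of groups. At PN21, m138 stood apart with 1.31 FPKM of *Myot*, with 0.814 FPKM of *Ryr1* and with a muscle share of 0.130% of the nuclear FPKM. At PN98, m106 stood apart with 0.197 FPKM of *Myh7* and with 1.19 FPKM of *Sln*, which was listed at 0 in the other mice. The log2 ratio of *Mybpc2* to *Mybpc1* stood apart in m1 at PN21 (−0.028) and in m114 at PN98 (1.65), and that of *Myl1* to *Myl3* in m125 at PN98 (4.87).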

How the results depend on the processing

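The 4 muscle genes called higher by limma became 8 with equal nuclear sums, 10 with median of ratios scaling, 1 with a pseudocount of 0.1, 0 of 39 without a filter on low values, 9 of 27 under the stricter filter (no value of 0, mean above 2 at either age), 23 with weighted mice and 1 of 24 when each gene stood for its transcript of lowest p (lowest-p transcript). They ranged from 0 to 8 without 1 mouse. The 1 gene called lower, *Tnnt1*, was called lower in all 8 of these alternatives that tested it. With the lowest-p transcript no gene was called lower, but *Tnnt1* was not tested there, as none of its transcripts passed that filter. Without 1 mouse, the genes called lower ranged from 0 to 1. Over the other lists, the 7 called higher became 13 (equal nuclear sums), 12 (median of ratios), 4 (no filter), 11 (stricter filter), 32 (weights), 2 (lowest-p transcript) and 0 (lost-decimal transcripts left out, which left only 2 genes to test), with 2 to 13 without 1 mouse. The 7 called lower became 4 (no filter), 26 (weights), 1 (lowest-p transcript) and 0 (lost-decimal transcripts left out, with the same 2 genes tested), with 2 to 22 without 1 mouse. The median log2 difference of the muscle genes was 3.45 with the lowest-p transcript and 1.24 to 2.02 without 1 mouse.

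Differences near 0 turned sign: *Mybpc1* (−0.045 with a pseudocount of 0.1, −0.35 to 0.66 without 1 mouse), *Tnnc1* (0.13 with equal nuclear sums, 0.12 by median of ratios and by weights, 0.39 with every transcript listing the symbol, −0.10 to 0.11 without 1 mouse), *Tpm2* (−1.22 with the lowest-p transcript), *Des* (−0.15 to 0.36) and *Mb* (−0.17 to 0.68). The cause was not tested. Of the pairs, 8 passed, 9 with a pseudocount of 0.1 or with every listed transcript, and 6 to 8 without 1 mouse. Chosen after seeing the data, the 5 pairs whose slow form was tested gave 4. The muscle share at PN98 was 0.00177% without the transcripts that lost a decimal mark, which left no muscle gene to test. The median within-age r was 0.929 to 0.955 without 1 mouse. No paired analysis was possible because mice of both ages share no number in the labels. Without read counts, depth sets no known limit on low values.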
